A study of Mus musculus with 16 samples.

Results

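The genes described here are the Gpr genes, the mouse genes that carry a number in the series of G-protein-coupled receptors named before their ligand was known. Every gene of the count table whose symbol is Gpr followed by a number was taken, leaving out Gpr119, which gave 95 of the 22869 genes of the table. The study compared sorted pancreatic β cells of young and old mice, to ask how chromatin, DNA methylation and RNA differ with age. RNA came from mice of the strain MIP-GFP/Bl6, in which the insulin promoter drives a green fluorescent protein, so the sorted cells are those in which that reporter was on. The 3 old RNA libraries were from mice of 15, 16 and 17 months and the 2 young ones from mice of 4 to 6 weeks, each from a pool of 5 to 10 mice. Histone marks and bisulfite sequencing were done in C57Bl6 mice with 1 sample per age. For these the young mice were 4 to 6 weeks and the old ones 16 to 18 months by their labels, while the design text gives 18 to 22 months for the old bisulfite pool. The young bisulfite pool held 10 mice and the old H3K27me3 pools 4 to 7. By the design text there were 2 replicas of old H3K27me3 and 3 young RNA samples, of which 1 list and 2 young RNA libraries were used here.

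G-protein-coupled receptors cross the membrane with 7 helices and pass the binding of a hormone, metabolite, peptide or matrix protein on to heterotrimeric G proteins, after which receptor kinases and arrestins switch them off. In the β cell, receptors that couple to Gs or Gq raise insulin secretion at high glucose and those that couple to Gi lower it. Many Gpr genes have since been paired with a ligand, many adhesion receptors of the list bind matrix proteins, and some Gpr symbols belong to membrane proteins of the Golgi or lysosome. H3K27me3 is the Polycomb mark of silenced genes, H3K27ac marks active promoters and enhancers, and H3K4me1 marks enhancers and the flanks of promoters. Methylation of CpG dinucleotides is usually absent from CpG-rich promoters and common at CpG-poor ones.

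The old RNA libraries held 23559906 to 33562820 gene counts and the young ones 6377620 and 12892122, so low genes were measured less precisely in young cells. The young ones are told apart here by depth, as shallower and deeper. Levels are given as CPM, counts relative to the library total scaled by TMM factors. The β-cell markers summed to 333559 to 437796 CPM in old libraries and to 315928 and 257304 CPM in the shallower and deeper young ones, so the defining genes of the labelled cell type were abundant in all 5, and 4 of the 10 markers were called higher in old cells and 0 lower by edgeR's quasi-likelihood test. Markers of other pancreatic cells were mostly higher in young libraries. Endothelial markers summed to 53.2 to 86.9 CPM in old libraries and to 529 and 915 CPM in young ones (10 of 10 called lower in old). Stellate and fibroblast markers summed to 6.19 to 10.0 CPM against 350 and 3806 CPM (10 of 10 lower), acinar markers to at most 147 CPM against 1710 and 2466 CPM (11 of 14 tested lower, with Ptf1a at 0 in old cells), and delta and PP markers to 234 to 482 CPM against 3186 and 9666 CPM (5 of 5 lower). Alpha markers summed to 1267 to 2157 CPM against 2161 and 32118 CPM (1 of 7 lower), duct markers to 121 to 159 CPM against 409 and 320 CPM (3 of 6 lower), macrophage and lymphocyte markers to 28.1 to 43.9 CPM against 203 and 287 CPM (3 of 11 lower), and Schwann and neural markers to 34.9 to 40.9 CPM against 47.8 and 86.4 CPM (0 of 5 tested lower). The part of these cells in the results on single Gpr genes was not tested. In bulk samples fewer cells of a type and less RNA per cell cannot be told apart. The labels used here do not give the sex of the mice, and Xist, the RNA of the inactive X chromosome, was at 2.71 to 3.22 CPM in old and at 302 and 589 CPM in young libraries, so a difference in sex and one in age cannot be told apart in the RNA values that follow.

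Most Gpr genes were silent or low in β cells, and a few were abundant. Of the 95 genes, 90 had a count in some library and 5 had none (Gpr6, Gpr31c, Gpr149, Gpr152 and Gpr174). Only 27 reached 1 CPM in all 5 libraries and 10 reached 10 CPM in all 5, while 19 stayed under 1 CPM in every library. Genes were also ordered by counts per transcript length, scaled to the same total in every library without TMM factors. On that scale genes of unequal length can be compared. Gpr56 led with a mean of 109 over the 5 libraries, followed by Gpr108 (72.8), Gpr158 (58.3), Gpr137b-ps (47.8) and Gpr89 (22.7). Next were Gpr142 (17.7), Gpr137 (16.9), Gpr180 (15.7), Gpr107 (13) and Gpr116 (11.2). Gpr56 ranked 475 among all genes on that scale. Its range over the libraries, 84.4 to 145, touched those of Gpr108 (59.5 to 93.4) and Gpr158 (15.3 to 104). Within each of the 5 libraries, though, Gpr56 was above both. The ranges of Gpr142 (6.48 to 58.8), Gpr137 (13.4 to 23.4) and Gpr180 (10.9 to 17.7) overlapped one another, and the order of these genes changed between libraries. Gpr142 owed its place to the deeper young library, the only one above 8.39.

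With age, few Gpr genes changed their RNA beyond the spread between pools. Counts were high enough to test 65 of the 95 genes, and 30 were not tested. Gpr158 rose and Gpr126, Gpr124, Gpr81 and Gpr37l1 fell, so that 1 was called higher and 4 lower in old cells (edgeR's quasi-likelihood test, Benjamini-Hochberg adjusted p under 0.05 over all genes). Over all 15544 genes tested, 3.17% were called higher and 7.93% lower, and the shares among Gpr genes, 1.54% and 6.15%, were near these. Every old library lay above both young ones for 12 of the 65 genes (24.4% of all genes tested) and below both for 20 (24.5%). The median log2 fold change of old over young was -0.30 for the 65 genes and -0.05 for all genes tested. At an unadjusted p under 0.05, edgeR had 4 higher and 14 lower. DESeq2 on the same counts called 3 Gpr genes higher, adding Gpr107 and Gpr171, and 12 lower, adding Gpr4, Gpr20, Gpr30, Gpr65, Gpr116, Gpr123, Gpr128 and Gpr160. Over all genes DESeq2 also called more than edgeR in each direction, with the totals given below under processing. No share of all genes at that unadjusted p is given here. The counts from DESeq2 and from unadjusted p are therefore not a result about Gpr genes. Without the 15-month or the 17-month library, 0 were called either way by edgeR, with 2 and 3 higher and 11 and 11 lower at an unadjusted p under 0.05. Without the 16-month library Gpr126 and Gpr37l1 were called, and without the shallower or the deeper young library 3 and 6 were called higher and 10 and 11 lower. With 1 young library left, the spread in the fit comes from the old libraries alone and the lone young library is assumed to vary like them. An adjusted p given without a young library therefore says how far that 1 library lay from the old ones, here and in what follows.

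**Figure D1:**
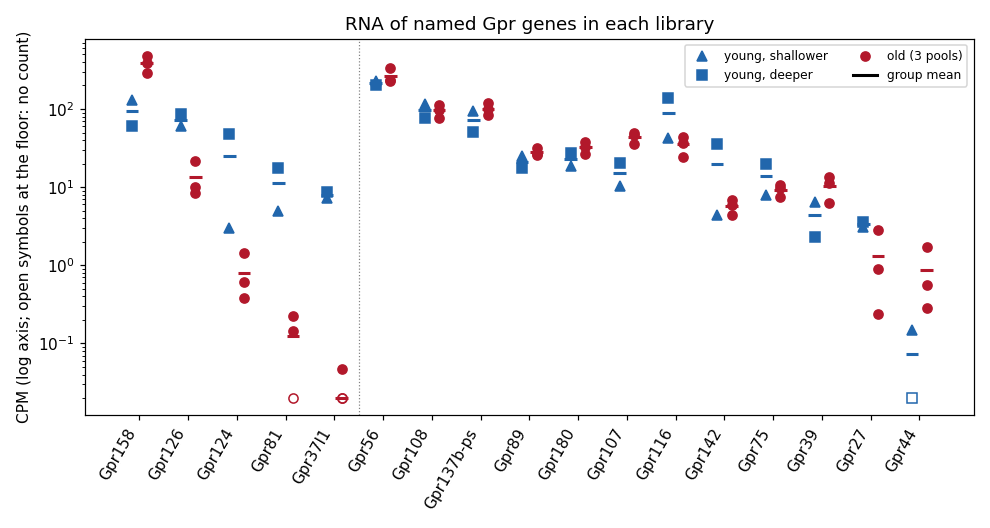
RNA of 17 Gpr genes in each library as CPM on a log axis, with blue symbols for the 2 young libraries, red symbols for the 3 old ones and bars for group means; the 5 genes left of the dotted line were called, and open symbols mark libraries without a count. Gpr158 lies higher in all 3 old libraries, Gpr126, Gpr124, Gpr81 and Gpr37l1 lie lower, and Gpr56 and Gpr108 stay level.

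Gpr158 encodes a class C receptor that binds glycine and the regulator RGS7 and is best known from neurons. It was measured at 385, 476 and 292 CPM in the old libraries of 15, 16 and 17 months and at 129 and 59.9 CPM in the shallower and deeper young ones. The groups did not overlap, and the young libraries were further apart in proportion than the old ones. The log2 fold change was 2.03 (SE 0.39, edgeR adjusted p = 0.02). The adjusted p was 0.069, 0.066 and 0.059 without the 15-, 16- and 17-month library in turn, with log2 fold changes of 2.01, 1.81 and 2.19. Gpr179, another class C gene, had a log2 fold change of -3.18 (edgeR adjusted p = 0.163).

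Among the 16 adhesion receptors, large proteins that cut themselves outside the membrane and sense matrix and neighbouring cells, 14 were tested. By edgeR 2 were called lower and 0 higher (7.93% and 3.17% of all genes tested). At an unadjusted p under 0.05 edgeR had 5 lower and 0 higher, and DESeq2 called 5 lower. The shares just given are for edgeR's adjusted p only and cannot be set beside these looser counts. A negative fold change was found in 11 of the 14, beside 38 of the 65 Gpr genes and 51.8% of all genes tested. Gpr126 (now Adgrg6), a collagen and laminin receptor needed for Schwann cells to form myelin, was at 8.40, 21.6 and 9.96 CPM in old libraries and at 59.9 and 85.2 CPM in the shallower and deeper young ones. The highest old library was under the lowest young one. The log2 fold change was -2.44 (SE 0.47, edgeR adjusted p = 0.021), and without the 15- or 17-month library it was -2.22 and -2.25 with adjusted p = 0.077 and 0.084. Gpr124, a co-receptor for Wnt7 in brain endothelium, was at 0.377, 0.607 and 1.43 CPM in old libraries and at 2.97 and 47.7 CPM in young ones. Its groups did not overlap, but the young libraries lay far apart, and the endothelial and stellate markers above were also highest in the deeper young library. Its log2 fold change was -4.99 (SE 1.14, edgeR adjusted p = 0.033), and without the deeper young library it was -1.87 with adjusted p = 0.381. It also missed the threshold without the 15-, 16- or 17-month library (adjusted p = 0.115, 0.1 and 0.09).

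Gpr56 (now Adgrg1), a collagen III receptor and the most abundant Gpr gene per length, was at 235, 329 and 225 CPM in old libraries and at 231 and 201 CPM in young ones. The groups overlapped, with a log2 fold change of 0.29 (SE 0.25, edgeR adjusted p = 0.49). Gpr116, found in lung epithelium and endothelium, was at 36.9, 24.3 and 44.4 CPM in old and 42.2 and 138 CPM in young libraries. Only the deeper young library stood above the old ones (log2 fold change -1.36, edgeR adjusted p = 0.109, 0.03 by DESeq2, and -1.97 with adjusted p = 0.0039 without the shallower young library). The adhesion genes Gpr128 (-6.91, edgeR adjusted p = 0.051) and Gpr123 (-6.48, adjusted p = 0.053) lay just outside the threshold. They had 2 and 3 counts over all old libraries and 69 and 65 over the young ones. Scaled by library, the young level was 135 times (95% counting interval 36.0 to 1138) and 84.8 times (27.8 to 422) the old one, intervals that cover counting error only.

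Of the receptors for metabolites and fatty acids, 2 of 5 were tested. Gpr81 (now Hcar1), the lactate receptor, was at 0.226, 0 and 0.143 CPM in old libraries and at 4.90 and 17.7 CPM in young ones. No old library came near the young ones. The log2 fold change was -6.49 (SE 1.43, edgeR adjusted p = 0.029), and it missed the threshold without the 15-, 16- or 17-month library (adjusted p = 0.082, 0.059 and 0.104) and without the deeper young one (0.057). Gpr142, a tryptophan receptor enriched in β cells, was at 4.41, 5.83 and 6.91 CPM in old and at 4.46 and 35.5 CPM in young libraries. The shallower young library lay among the old ones, and the log2 fold change of -1.81 (edgeR adjusted p = 0.176) became -2.63 with adjusted p = 0.0032 without it, which sets the old libraries against the high young library alone. Gpr84, a receptor for medium-chain fatty acids on macrophages, had 200 young counts, all in the shallower library (29.7 CPM), and 1 old count, and was not tested.

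Of the 10 peptide, chemokine and complement receptors 5 were tested, 1 of which was called. Gpr37l1, a receptor of astrocytes for which prosaposin has been proposed as ligand, had 1 count in the 3 old libraries together and 170 in the young ones. On the CPM scale it was at 0, 0 and 0.048 in old and at 7.28 and 8.76 in young libraries. The young libraries lay close together, and the scaled ratio of young to old was 666 (95% counting interval 118 to 26447). The fitted log2 fold change, which depends on the prior count, was -8.68 (SE 1.5, edgeR adjusted p = 0.015), with adjusted p = 0.064 without the 15-month and 0.058 without the 17-month library. Gpr75, for which chemokine and lipid ligands have been proposed, was at 9.64, 7.56 and 10.6 CPM in old and 8.02 and 19.8 CPM in young libraries, with a log2 fold change of -0.59 (edgeR adjusted p = 0.55).

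The promoters of 4 of the called genes show how unlike these genes are at the DNA level. They are shown because methylation and histone marks at these starts are compared in what follows. Each is a RefSeq sequence of the build GRCm38.p6, running from 250 bases before to 50 after the start, 5′ to 3′ on the gene's strand, with each CG dinucleotide in capitals. The sequences lie at chr2:21367317-21367616 (Gpr158, plus strand), chr10:14544987-14545286 (Gpr126, minus strand), chr1:135167632-135167931 (Gpr37l1, minus strand) and chr5:123879954-123880253 (Gpr81, minus strand). Whether these starts are the same bases as the starts in the count table, which is on mm9, was not tested.
Gpr158: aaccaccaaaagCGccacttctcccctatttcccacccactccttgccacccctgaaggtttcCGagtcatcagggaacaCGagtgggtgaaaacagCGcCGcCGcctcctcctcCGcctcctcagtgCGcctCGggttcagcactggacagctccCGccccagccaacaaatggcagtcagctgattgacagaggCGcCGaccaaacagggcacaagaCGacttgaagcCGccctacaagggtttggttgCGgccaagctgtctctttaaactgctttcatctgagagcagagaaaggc
Gpr126: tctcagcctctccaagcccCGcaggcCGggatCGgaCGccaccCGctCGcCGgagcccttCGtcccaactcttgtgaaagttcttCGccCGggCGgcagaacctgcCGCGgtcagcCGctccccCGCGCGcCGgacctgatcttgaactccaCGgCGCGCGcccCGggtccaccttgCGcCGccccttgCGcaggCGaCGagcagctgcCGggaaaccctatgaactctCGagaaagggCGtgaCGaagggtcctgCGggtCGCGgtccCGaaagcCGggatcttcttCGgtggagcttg
Gpr37l1: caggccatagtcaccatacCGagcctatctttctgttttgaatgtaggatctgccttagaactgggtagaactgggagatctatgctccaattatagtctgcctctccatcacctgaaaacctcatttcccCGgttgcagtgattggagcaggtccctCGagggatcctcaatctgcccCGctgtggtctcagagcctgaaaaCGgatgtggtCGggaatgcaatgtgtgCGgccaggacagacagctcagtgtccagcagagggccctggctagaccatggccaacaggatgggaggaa
Gpr81: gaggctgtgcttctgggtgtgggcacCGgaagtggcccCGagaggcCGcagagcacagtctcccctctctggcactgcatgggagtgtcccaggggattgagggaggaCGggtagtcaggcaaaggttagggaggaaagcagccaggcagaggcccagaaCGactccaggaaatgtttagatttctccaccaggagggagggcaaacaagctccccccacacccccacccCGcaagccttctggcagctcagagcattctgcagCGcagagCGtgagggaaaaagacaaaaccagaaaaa
The window of Gpr126 held 38 CG dinucleotides and that of Gpr158 held 15, against 7 for Gpr37l1 and 8 for Gpr81. Among all 22862 genes with 1 such sequence the median was 7, and 93.8% held at least 1. For the 53 Gpr genes with exactly 1 sequence the median was 8.

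Promoter methylation in β cells followed that difference. Methylation was the share of methylated calls over the CpGs from 1000 bases before to 500 after the start, with at least 5 reads per CpG in both ages. In young and old cells it was 3.76% and 6.88% at Gpr158, 4.53% and 6.48% at Gpr126 and 5.22% and 4.48% at Gpr124. At Gpr37l1 it was 81.0% and 78.1%, and at Gpr81 79.1% and 83.9%. None of the 5 genes with a called RNA change differed by 10 percentage points, the size required for a call. Gpr37l1 and Gpr81 were detected in young libraries while their promoters were mostly methylated in the young bisulfite library.

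The genes with known islet roles that are not yet described did not pass the test. Gpr39, a zinc receptor that raises insulin release, was at 11.3, 6.31 and 13.5 CPM in old and at 6.54 and 2.32 CPM in young libraries (log2 fold change 1.24, edgeR adjusted p = 0.318). Gpr27, one of the 3 SREB receptors conserved between vertebrates and linked to insulin promoter activity, was at 0.904, 2.82 and 0.238 CPM in old and at 3.12 and 3.55 CPM in young libraries. All old libraries of Gpr27 were below the young ones, with a log2 fold change of -1.33 (edgeR adjusted p = 0.526). Gpr44 (now Ptgdr2), a prostaglandin D2 receptor, was at 0.565, 1.73 and 0.286 CPM in old libraries and had 1 count in the young ones. That lone count leaves a young-over-old ratio of 0.0502 with a counting interval of 0.00126 to 0.288 (edgeR adjusted p = 0.291). Gpr55, a receptor for lysophosphatidylinositol, stayed under 0.2 CPM in old libraries, had no young count and was not tested.

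The membrane proteins outside the receptor classes were the most widely expressed group. Of 12 genes, 9 were at 1 CPM or more in all 5 libraries, and of the 11 tested 0 were called either way by edgeR, with 1 higher and 0 lower at an unadjusted p under 0.05 and 1 higher, Gpr107, by DESeq2. The median log2 fold change was 0.48, with 4 negative values. Gpr107, a Golgi protein, was at 46.9, 49.8 and 36.0 CPM in old and 10.2 and 20.2 CPM in young libraries. The groups did not overlap, yet the log2 fold change of 1.53 (SE 0.42) fell just short (edgeR adjusted p = 0.055). It passed with DESeq2 (1.42, adjusted p = 0.0083) and without a filter on low counts (1.59, adjusted p = 0.028). Against the shallower young library alone the log2 fold change was 2.12 (edgeR adjusted p = 0.0046). Gpr108, a relative of Gpr107, was level, with a log2 fold change of -0.02 (edgeR adjusted p = 0.978). Gpr89, a Golgi anion channel, was at 31.6, 26.0 and 26.7 CPM in old and 25.1 and 17.4 CPM in young libraries, with a log2 fold change of 0.41 (edgeR adjusted p = 0.518). Gpr137b-ps (0.49), Gpr180 (0.48) and Gpr137, a lysosomal protein (-0.30), were not called either. Gpr137b-ps and Gpr137b may share reads, which leaves both uncertain.

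The proton-sensing receptors Gpr4, Gpr65 and Gpr132, which answer to acid outside the cell, had negative log2 fold changes and none was called by edgeR. All 3 were at an unadjusted p under 0.05, and 2, Gpr4 and Gpr65, were called lower by DESeq2. Gpr4, found on endothelium, was at 2.56, 1.94 and 0.238 CPM in old and 8.17 and 12.2 CPM in young libraries (-2.68, adjusted p = 0.131). Gpr65 and Gpr132, found on leukocytes, had log2 fold changes of -3.88 (adjusted p = 0.118) and -5.89 (adjusted p = 0.092). Every old library was below both young ones for each of these 3 genes, as for 24.5% of all genes tested. Endothelial and leukocyte markers were also lower in old libraries, with the sums given above. Between the young libraries, Gpr4 and Gpr132 were higher in the deeper one, as were these marker sums. Gpr65 went the other way, at 3.13 per length in the shallower and 1.48 in the deeper library. The part of these cells in the 3 genes was not tested.

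The remaining class A genes held no call by edgeR, and 1 higher and 2 lower among the other orphans at an unadjusted p under 0.05. DESeq2 called Gpr20 and Gpr160 lower. The constitutively active orphans (6 of 10 tested) had a median log2 fold change of 0.30, the receptors for lysophospholipids, sterols and prostanoids (4 of 7 tested) 0.38 and the other class A orphans (12 of 23 tested) -0.48. Gpr20, a Gi-coupled orphan, had no count in the 3 old libraries and was at 1.19 and 2.97 CPM in young ones, at least 55.7-fold lower in old cells against a floor of 3 counts over the old libraries (edgeR adjusted p = 0.052). Gpr82 was the reverse, with 1.21, 0.880 and 0.477 CPM in old libraries and no young count, at least 5.85-fold higher against the same floor over the young libraries (edgeR adjusted p = 0.127). Gpr30 (now Gper1), an estrogen-responsive receptor, was at 0.264, 0.486 and 1.0 CPM in old and 2.38 and 12.4 CPM in young libraries, with a log2 fold change of -3.66 (edgeR adjusted p = 0.077, and 0.009 by DESeq2). Gpr176, Gpr45 and Gpr101 were at 31.0, 17.2 and 11.4 CPM in the shallower young library. So was Gpr143, counted above with the membrane proteins outside the receptor classes, at 11.4 CPM. All of them were under 0.4 CPM in each other library, so 1 library made their young levels.

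Several of these genes share their place with another gene. Of the 95, 14 overlapped another gene of the table and 11 lay wholly inside one, 10 of them on the opposite strand. Gpr82 and Gpr34 lie in Cask, Gpr171 in Med12l, Gpr18 and Gpr183 in Ubac2, Gpr146 and Gpr30 in 3110082I17Rik, Gpr17 in Lims2, Gpr22 in Cog5 and Gpr21, on the same strand, in Rabgap1. The labels and headers do not say whether reads were counted by strand, so reads of these genes and their hosts cannot be told apart. Gpr82 and Gpr171 were among the 12 genes with all old libraries above the young ones. Their hosts Cask and Med12l had log2 fold changes of 0.79 (edgeR adjusted p = 0.085) and 0.35 (adjusted p = 0.412).

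H3K27me3 lay at the start of a larger share of Gpr genes than of all genes, in both ages. A region within 1000 bases of the start was present at 43 of 95 Gpr genes in young cells (45.3%, against 27.9% of all 22534 genes with 1 position) and at 60 in old cells (63.2%, against 41.5%). Both ages had it at 39 genes (41.1% against 23.1%), only the old list at 21 (22.1% against 18.4%), only the young list at 4 (4.21% against 4.79%), and neither at 31. The old list covered 649 Mb in 38007 regions and the young one 452 Mb in 31187, so a start was more often covered in the old list for genes of any kind. With 1 library per age there is no test of this difference. H3K27ac, held for young cells, lay at 12 Gpr genes (12.6% against 34.3%), which were Gpr19, Gpr39, Gpr45, Gpr56, Gpr75, Gpr89, Gpr108, Gpr137, Gpr137c, Gpr155, Gpr158 and Gpr180. H3K4me1 lay near 42 genes in young cells (44.2% against 45.5%) and 25 in old cells (26.3% against 29.9%).

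**Figure D2:**
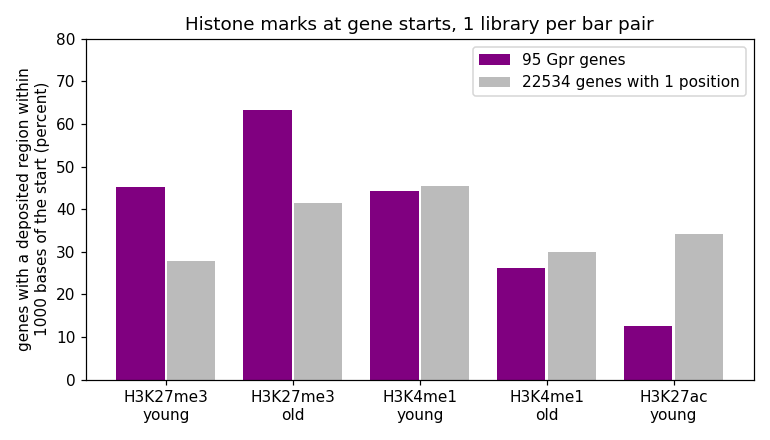
Percent of genes with a region of each mark within 1000 bases of the start, for the 95 Gpr genes (purple) and all 22534 genes with 1 position (grey), from 1 library per mark and age. The Gpr bars are above the grey ones for H3K27me3 (45.3% and 63.2%), below them for H3K27ac (12.6%), and close to them for H3K4me1.

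Most genes with H3K27me3 in both ages were low in the old libraries, and less uniformly so in the young ones. Of the 39, 2 were at 1 CPM or more in all 5 libraries (5.13%, against 14.7% of all genes with the mark in both ages) and 32 were under 1 CPM in every old library. In both young libraries 13 were under 1 CPM and 10 at 1 CPM or more, among them Gpr124, Gpr4 and Gpr160 (6.39 and 4.92 CPM). Of the 31 genes without the mark, 14 were at 1 CPM or more in all 5 (45.2% against 62.4%). Of the 21 with the mark in the old list only, 10 were at that level (47.6% against 49.6%). The 2 genes of the first group at 1 CPM or more in all 5 libraries were Gpr126 and Gpr89. Gpr4, Gpr65 and Gpr132 and 13 of 16 adhesion receptors in old cells (8 in young) carried the mark, against 0 of 3 SREB receptors in young cells and 1 in old.

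The log2 fold change of RNA differed between these classes much as it did over all genes. Among the genes tested, the median was -2.72 for the 17 Gpr genes with the mark in both ages and -2.84 for all such genes, 0.15 against 0.22 where neither age had it, and -0.02 against -0.32 where only the old list had it. Only 17 of the 39 genes with the mark in both ages could be tested, and a low gene could reach the test through its young counts alone, so these medians describe the tested genes only. The markers of other cell types, lower in old libraries, moved with them. Gpr126 and Gpr124 were in the class with the mark in both ages, to which DESeq2 added 6 more lower genes. No called share of all genes in that class is given here, so these calls are not a result about Gpr genes. Gpr158, Gpr81 and Gpr37l1 had the mark in neither age.

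**Figure D3:**
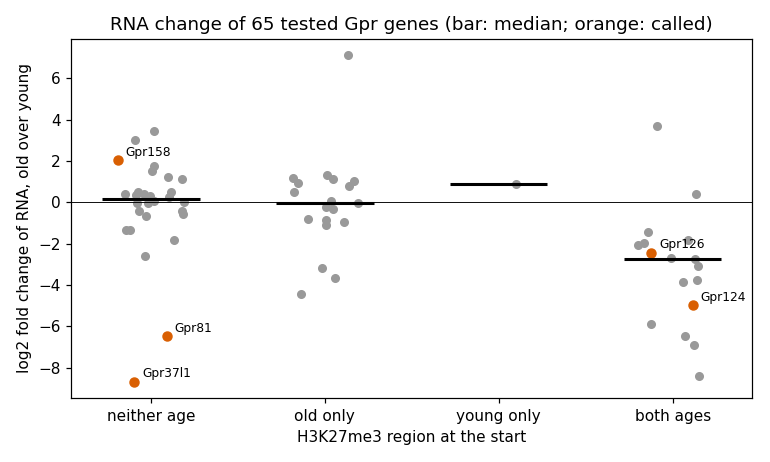
Log2 fold change of RNA, old over young, of the 65 Gpr genes tested, grouped by where a H3K27me3 region lay at the start; each point is 1 gene, black bars are medians and orange points are called genes. Genes with the mark in both ages have a median of -2.72, the medians of the neither and old-only classes are 0.15 and -0.02 with single genes far from them on both sides, and the young-only class holds 1 gene.

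None of the tested genes with a region in 1 list only was called by edgeR. Of the 21 with a region in the old list only, 19 were tested and 0 were called higher or lower by edgeR, with 1 higher and 2 lower at an unadjusted p under 0.05 and 1 lower, Gpr30, by DESeq2. Over all genes tested 3.17% were called higher and 7.93% lower, so a count of 0 in 19 is not a result about these genes. The widest of these regions was 119 kb over Gpr108, whose RNA was level, then 49 kb over Gpr162 (log2 fold change 1.05, edgeR adjusted p = 0.659) and 24 kb over Gpr137. Others in this class were Gpr98, an adhesion receptor of sensory hair cells (-0.20), Gpr125, an adhesion receptor (-1.12), Gpr133 (0.94), Gpr97 (-0.85), Gpr155, a lysosomal cholesterol sensor (1.14), Gpr172b, a riboflavin transporter (1.20), Gpr173 (1.32), Gpr179 (-3.18), Gpr61 (0.05), Gpr62 (-0.80), Gpr146 (-0.94), Gpr180 (0.48), Gpr34 (0.79) and Gpr1, a chemerin receptor (-4.46, adjusted p = 0.168). Against 1 young library alone some of these passed the threshold. Against the shallower one they were Gpr172b (5.95, edgeR adjusted p = 0.0048), Gpr133 (1.66, adjusted p = 0.014) and Gpr125 (-1.59, adjusted p = 0.018), and against the deeper one Gpr155 (2.40, adjusted p = 0.042), Gpr146 (-1.79, adjusted p = 0.029) and Gpr30 (-4.40, adjusted p = 0.012). Gpr172b was at 0.149 CPM in the shallower young library and at 7.96 CPM in the deeper one, beside 8.15 to 11.9 CPM in old libraries, so that call rests on 1 low value. Gpr26, a constitutively active orphan and the 1 tested gene of the 4 with a region in the young list only, was at 24.1, 21.1 and 15.7 CPM in old and 19.0 and 3.18 CPM in young libraries. Its log2 fold change was 0.89 (edgeR adjusted p = 0.453), and 2.68 with adjusted p = 0.0078 against the deeper young library alone, since the shallower one lay among the old libraries. Where both lists had a region, its width could differ widely, from 29 to 286 kb at Gpr50, 21 to 246 kb at Gpr25 and 36 to 212 kb at Gpr123 from young to old, and from 144 to 54 kb at Gpr139.

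At the promoter, Gpr genes were split between unmethylated and methylated starts. Of the 91 with at least 5 usable CpGs, 48 were under 30% methylated in young cells, 2 between 30% and 50% and 41 at 50% or more. Over all 20483 promoters tested the shares were 67.1%, 4.10% and 28.8%, beside 52.7%, 2.20% and 45.1% for Gpr genes. Of the 48 with low methylation, 26 had H3K27me3 in young cells, 34 in old cells, 12 had H3K27ac and 19 were at 1 CPM or more in all 5 libraries. Of the 41 with high methylation, 15 had H3K27me3 in young cells, 21 in old cells, 0 had H3K27ac and 8 reached 1 CPM in all 5. Windows with low methylation were rich in CpGs, with a median of 18 per 300 bases of RefSeq promoter in the 29 genes with 1 sequence, against 4 in the 22 such genes with high methylation. Gpr142, at 98.5% in young and 93.0% in old cells, and Gpr116, at 85.2% and 84.9%, were among the genes with measurable RNA and a methylated promoter.

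Between the libraries, methylation was higher in old cells at 9 Gpr promoters and lower at 2 (Fisher's exact test on summed calls, adjusted over all promoters, with a difference of at least 10 points). Over all promoters 3.79% were higher and 4.62% lower, and for the Gpr genes the shares were 9.89% and 2.20%. This test compares the 2 libraries, not the ages, and neighbouring CpGs share reads, so its p-values and intervals cover counting error only. Over all CpGs used, methylation was 66.8% in the old and 63.6% in the young library. The higher promoters were Gpr149 (63.6% to 85.1%), Gpr35 (63.2% to 83.3%), Gpr182 (73.8% to 91.2%), Gpr30 (59.1% to 76.3%), Gpr55 (69.6% to 84.5%), Gpr15 (70.3% to 85.1%), Gpr20 (45.5% to 59.7%), Gpr133 (71.4% to 83.4%) and Gpr143 (24.9% to 36.5%). Of these, 7 started at 50% or more. They were 17.1% of the 41 Gpr promoters at that level, against 7.58% of all such promoters. Lower in old cells was 1 of the 41 (2.44%, against 9.94%). Gpr30 rested on 826 young and 1141 old calls, with Wilson 95% intervals of 55.7% to 62.4% and 73.8% to 78.7%. Gpr35 and Gpr149 rested on 5 and 7 CpGs. Asking for 10 reads per CpG left 4 higher and 4 lower, with Gpr133 at 5.36 points and Gpr20 at 9.90 points no longer called, and in a window of 500 bases before to 200 after the start Gpr55 was at 8.33 points. Of the 9 genes, Gpr30, Gpr133, Gpr182 and Gpr20 were tested for RNA, and none was called by edgeR. Gpr182, an endothelial scavenger of chemokines, was at 7.95, 2.43 and 4.43 CPM in old and 4.75 and 2.17 CPM in young libraries, with overlapping groups.

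The lower promoters were those of Gpr64 and Gpr110, both adhesion receptors. Gpr64 (now Adgrg2), known from the epididymis, is on the X chromosome and went from 21.5% (Wilson 95% interval 19.0% to 24.1%, 987 calls) to 6.65% (5.31% to 8.31%, 1067 calls) over 56 CpGs at chrX:156827622-156829122 of mm9. Gpr110 (now Adgrf1), which binds the fatty amide synaptamide, went from 78.4% (74.5% to 81.8%) to 63.1% (58.6% to 67.3%) over 18 CpGs. Both carried H3K27me3 in both ages, and both had low RNA, with at most 0.743 CPM for Gpr64 and 6.54 CPM for Gpr110 in any library. The promoters of Gpr64 and Gpr30, with opposite changes, are shown for their unlike CpG content, 30 against 6 CG dinucleotides in capitals. They are RefSeq sequences of GRCm38.p6 at chrX:160390440-160390739 and chr5:139422929-139423228, both on the plus strand.
Gpr64: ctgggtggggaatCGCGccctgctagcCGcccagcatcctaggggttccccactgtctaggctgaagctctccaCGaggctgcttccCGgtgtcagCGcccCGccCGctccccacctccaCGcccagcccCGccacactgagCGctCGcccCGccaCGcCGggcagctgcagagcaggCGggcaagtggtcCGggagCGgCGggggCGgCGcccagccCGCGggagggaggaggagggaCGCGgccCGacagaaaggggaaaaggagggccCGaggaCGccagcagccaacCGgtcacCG
Gpr30: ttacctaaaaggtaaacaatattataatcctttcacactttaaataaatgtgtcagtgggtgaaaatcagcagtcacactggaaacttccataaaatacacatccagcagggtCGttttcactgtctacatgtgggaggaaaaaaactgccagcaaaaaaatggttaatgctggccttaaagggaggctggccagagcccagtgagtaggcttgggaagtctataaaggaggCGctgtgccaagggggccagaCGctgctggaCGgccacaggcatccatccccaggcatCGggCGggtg
The difference at Gpr64 spans a CpG-rich window. All but 2 of the 9 promoters with higher methylation in old cells were already mostly methylated in young cells. Over all promoters, 448 of the 776 called higher were so too.

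**Figure D4:**
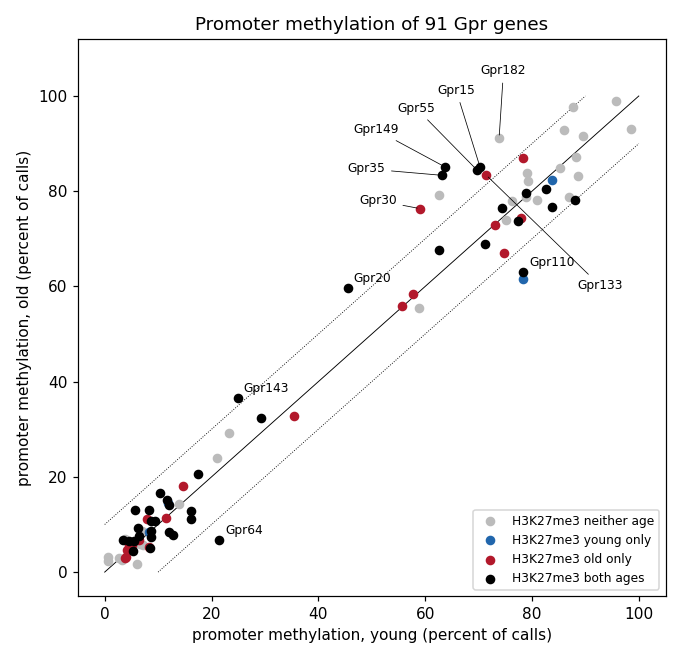
Promoter methylation of 91 Gpr genes in the young library (x axis) and the old library (y axis), in percent of calls, coloured by where H3K27me3 lay; the solid line marks equal values and the dotted lines a difference of 10 points. Called genes are named: 9 lie above the band, most of them between 59% and 74% in young cells, and Gpr64 and Gpr110 lie below it, while unnamed points outside the band did not pass the adjusted p.

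Near Gpr genes, H3K4me1 sites lost methylation more often than they gained it, as over the genome. Sites are the H3K4me1 peaks of either age with their centre within 50 kb of a start and outside the promoter window. There were 626 of them near 82 Gpr genes, of which 228 near 67 genes had at least 3 usable CpGs. Of these 228 sites, 32 were lower in old cells (17.1% of all 32959 sites tested) and 14 higher (9.79%), and the median difference was -0.29 points near Gpr genes and -0.98 points over all sites. At least 1 lower site lay near 26 of the 67 genes (42.8% of all genes with a tested site) and at least 1 higher site near 12 (28.6%). These shares of Gpr genes are not above those of genes in general. By peak list, 20 of 123 sites found only in the young list were lower and 5 higher. Of 64 found only in the old list, 8 were lower and 5 higher, and of 41 found in both, 4 and 4. The called shares of all sites were not computed by list, so this split is not a result about Gpr genes.

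The largest losses rested on few CpGs. A site of 3 CpGs 25.2 kb from the start of Gpr151, a receptor of the habenula, went from 63.0% to 0% of calls, with an upper Wilson limit of 7.41% in the 48 old calls. A site 36.1 kb downstream of the start of Gpr1 (chr1:63224596-63224722, mm9) went from 87.0% to 36.0%, with 25 old calls. Sites near Gpr35 and Gpr62 went from 90.4% to 53.2% and from 52.2% to 15.2%. All 4 of these genes were low or silent, at most 2.52 CPM except for Gpr62 at up to 15.0 CPM.

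Gpr158 was the 1 Gpr gene called higher by edgeR. Of all genes with a tested site, 42.8% had a site called lower, and Gpr158 had such a site. It lies 30.2 kb downstream of the start, within the span of the gene at chr2:21319335-21319461 of mm9, and is a peak of the young list only. Over 5 CpGs methylation was 37.1% in 70 young calls (Wilson 95% interval 26.8% to 48.9%) and 0% in 48 old calls (upper limit 7.41%), with a Fisher adjusted p of 2.1e-06. With at least 10 reads per CpG the difference was -50.0 points. The promoter of the gene was unmethylated in both ages and carried H3K27ac in young cells. Whether the site acts on Gpr158 was not tested.

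Large gains were at sites near Gpr63 (0% to 45.8% on 19 young and 24 old calls), Gpr44 (2.56% to 32.7%), Gpr137b-ps (7.45% to 36.4%) and Gpr108 (0% to 24.5%). Gpr63, a class A orphan, had a log2 fold change of -0.01 in RNA. Gpr137b-ps and Gpr108, the more abundant of these genes, had log2 fold changes of 0.49 and -0.02, and neither was called by edgeR.

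**Figure D5:**
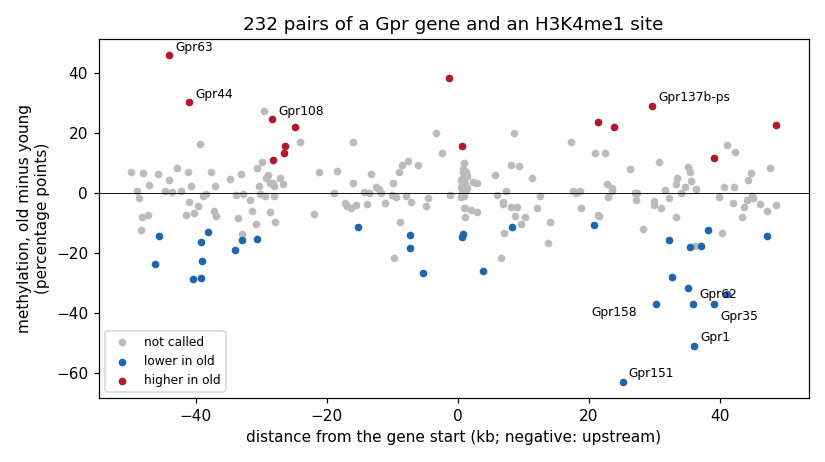
Methylation difference, old minus young in percentage points, at each tested H3K4me1 site against its distance from the start of the Gpr gene, with 232 pairs of gene and site; blue points are called lower, red points higher and grey points neither. The named genes have the 5 largest losses and some of the largest gains, and Gpr158 has a site 30.2 kb downstream that fell to 0%.

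Among the genes that couple Gpr receptors to the cell, the number called depended on the tool. Of 60 genes of G protein subunits, arrestins, receptor kinases and RGS proteins, 54 were tested, 1 was called higher and 5 lower by edgeR (3.17% and 7.93% of all genes), with a median log2 fold change of -0.33. At an unadjusted p under 0.05 edgeR had 3 higher and 13 lower, and DESeq2 called 3 higher and 12 lower. Gnaq, the subunit that activates phospholipase C, rose from 62.2 and 73.0 CPM in young to 145, 126 and 121 CPM in old libraries (0.95, edgeR adjusted p = 0.045). With other size factors (RLE) its adjusted p was 0.061, and without the 15-, 16- or 17-month or the shallower young library 0.189, 0.135, 0.094 and 0.057. Gnai1, an inhibitory subunit that lowers cyclic AMP, fell from 103 and 90.7 CPM to 36.1, 41.2 and 34.4 CPM (-1.38, edgeR adjusted p = 0.021, and 0.094, 0.067 and 0.079 without the 15-, 16- or 17-month library). Rgs16, which speeds the shutoff of Gi and Gq, was at 42.9 and 43.1 CPM in young and 2.86, 0.971 and 7.67 CPM in old libraries (-3.49, edgeR adjusted p = 0.029, and 0.109 and 0.056 without the 15- or 16-month library). These 3 genes did not overlap between the ages.

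Arrb1 (β-arrestin 1), which uncouples and internalises receptors, had a log2 fold change of -2.67 (edgeR adjusted p = 0.035), and Gng3, a neuronal γ subunit, -4.22 (adjusted p = 0.038). Both missed the threshold without any 1 of the old libraries (adjusted p = 0.127, 0.112 and 0.095 for Arrb1 and 0.115, 0.111 and 0.116 for Gng3 without the 15-, 16- and 17-month library). They also missed it without the deeper young library (-1.67, adjusted p = 0.088, and -2.50, adjusted p = 0.226). The fifth lower gene was Rgs5, a gene of pericytes, at -2.78 (edgeR adjusted p = 0.048). Gnas, the subunit that raises cyclic AMP, was at 762, 927 and 984 CPM in old and 1350 and 1115 CPM in young libraries, with a log2 fold change of -0.47 (edgeR adjusted p = 0.203, and 0.042 by DESeq2). With the first listed transcript in place of the one with most counts, its log2 fold change was -7.05 (edgeR adjusted p = 0.0078).

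A further list, called renamed receptors here, holds many receptors that once carried a Gpr number and some that did not, such as Ghsr. Of 33 listed, 26 were in the table and 12 were tested, with a median log2 fold change of 0.13. By edgeR 0 were called higher and 1 lower, beside 3.17% and 7.93% of all genes tested. The 1 call in 12 is near that share and is not a result about these receptors. DESeq2 and edgeR's unadjusted p under 0.05 gave the same 0 and 1. Ffar1, the long-chain fatty acid receptor of β cells, was at 19.0, 13 and 30.1 CPM in old and 25.4 and 15.6 CPM in young libraries, with a log2 fold change of 0.02 (edgeR adjusted p = 0.988). The groups overlapped throughout. Ghsr, the ghrelin receptor of delta cells, was at 0.452, 0 and 0.191 CPM in old and at 50.4 and 3.26 CPM in the shallower and deeper young libraries (-6.95, edgeR adjusted p = 0.029). It was at -3.90 with adjusted p = 0.184 without the shallower young library, and at 0.073, 0.064 and 0.11 without the 15-, 16- or 17-month one. Delta and PP markers were also lower in old cells. The young libraries differed the other way: Ghsr was higher in the shallower one, but the delta and PP marker sum was higher in the deeper one (9666 against 3186 CPM). The part of delta cells in the Ghsr result was not tested.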

How the data were processed

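RNA, histone marks and DNA methylation were read from the deposited tables. The authors' RNA table holds counts per transcript (28644 transcripts), and each gene was represented by its transcript with most counts. Their second RNA table, deposited as a signal per transcript, gave only the relative transcript lengths, which agreed between columns within an SD of 0.00358 on the log2 scale over 6492 genes. One column of that signal table, labelled 17M, repeats the shallower young column in 100% of entries, so 1 column was not used. The histone lists give the authors' regions with a score per region, per the file headers, and regions were ranked by it only in 1 alternative. The bisulfite tables give, as deposited, a methylated fraction and a count of reads per CpG (median coverage 18 in old and 16 in young cells), from which methylated calls were recovered as whole numbers. Coordinates are those of mm9, per the submitters' processing notes, which also list edgeR, HOMER, STAR, Bowtie 0.12.7 and CASAVA 1.8.2 without a role.

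RNA was tested with edgeR 4.0.16 (TMM factors, filterByExpr, quasi-likelihood test, 2-sided) in R 4.3.3, and with DESeq2 1.42.0 as an alternative. Pools are separate samples by their labels, so p-values measure the spread between these pools. Methylation was tested with Fisher's exact test (scipy 1.17.1) on calls of CpGs with 5 to 200 reads in both ages. Calls needed an adjusted p under 0.05 and, for methylation, 10 percentage points. The tests were tried on simulated data. Promoter sequences are from RefSeq (GRCm38.p6), in which 92 of the 95 genes were matched and 66 had a sequence. Genes were named where RNA or promoter methylation was called, where they ranked among the 10 highest per length, had a known islet role, differed in H3K27me3 between lists with RNA tested, or had 1 of the 5 largest site losses or gains. The genes and lists were chosen with earlier results of these data known. Some genes that this rule names are not reported here.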

Additional observations from a re-analysis of the deposited data

How the results depend on the processing

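The number of RNA libraries limits every call, and the single bisulfite and chromatin libraries allow no test of age. RLE factors moved the median log2 fold change of all genes from -0.05 to -0.17 and called 0 coupling genes higher. DESeq2 called 1114 genes higher and 2448 lower among the 15544 genes tested. It called 3 and 12 among the 65 Gpr genes tested, and 3 and 12 among the 54 coupling genes tested. Without a filter on low counts 823 genes, 2 Gpr genes and 3 coupling genes were higher, and 7 Gpr genes were lower. Leaving out 1 library gave 40 to 2368 genes higher and 273 to 3099 lower, 0 to 6 and 0 to 11 Gpr genes, 0 to 4 and 0 to 7 coupling genes, and 0 to 2 and 0 to 4 renamed receptors. All 5 Gpr calls kept their side of the threshold under RLE factors, DESeq2, no filter and the first listed transcript. Promoter calls numbered 4 lower and 4 higher with 10 reads per CpG, 5 lower in the narrower window, and 0 lower and 2 higher at 20 points. Genes with a lower or higher H3K4me1 site numbered 8 and 2 within 20 kb and 12 and 5 with 5 CpGs, and 12 had a lower site at 20 points. At the start base itself 3 young and 4 old H3K4me1 peaks and 7 H3K27ac regions lay at Gpr genes, and regions at or above the median score lay at 26 for young H3K4me1 and 5 for H3K27ac. No result reversed. Of the counts of calls or marked genes, 61 values under an alternative moved by over 1.5 times and 42 did not. Of the values for single genes, 361 stayed on their side of the threshold, 49 lost and 16 gained a call. The causes were not tested. No paired analysis was possible because the young count columns carry no replicate numbers. Counts of 0 to 3 reads limit the low genes.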

Other observations

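The X chromosome stood apart in the libraries compared here. Xist, the RNA that coats the inactive X chromosome, was at 2.71, 3.22 and 2.76 CPM in the old and at 302 and 589 CPM in the shallower and deeper young RNA libraries (log2 fold change -7.26, SE 0.37, edgeR adjusted p = 0.000314), though its antisense partner Tsix may share reads. Of the X-linked promoters tested in the bisulfite libraries, which came from other mice, 116 of 733 (15.8%) were called, against 1604 of 19744 (8.12%) on autosomes, and the differences had an SD of 8.35 points on X and 6.06 points on autosomes. Of the 95 Gpr genes, 9 are on X, 6 of which had a tested promoter and 2 a call, Gpr64 lower and Gpr143 higher in old cells. On autosomes 9 of 85 were called. The labels used here do not give sex, and a difference in sex between the libraries and one in age cannot be told apart in these values.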
